A study of Homo sapiens with 24 samples.

Results

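The 10 genes described here move iron into cells, store it, pass it out, sense it and break down or carry heme. They were taken by gene symbol (TFRC, TF, FTH1, FTL, SLC40A1, SLC11A2, HMOX1, IREB2, ACO1 and ABCB6) from count tables that list 23106 symbols, and all 10 were found in each of 24 libraries. The study examined hypoxia pathways in cancer cells. Its libraries come from 4 established cell lines, namely A549 (lung cancer), HCT-116 (colorectal cancer), PC3 (prostate cancer) and T47D (breast cancer). Each line gave 3 libraries from cells in 21% oxygen (normoxia) and 3 from cells in 0.5% oxygen (hypoxia) for 16 h, and no other treatment or transgene is given for these lines. A549 and PC3 cells grew in F12K medium, HCT-116 cells in McCoy's 5a and T47D cells in DMEM, all with 10% fetal bovine serum, L-glutamine and penicillin-streptomycin. Line and medium therefore cannot be told apart, except between A549 and PC3.

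Cells take up iron by binding transferrin, the iron carrier of blood, at the transferrin receptor on their surface, and an ion transporter then moves the iron from the endosome to the cytosol. Iron that is not used is stored inside shells of ferritin heavy and light chains or leaves through ferroportin. Iron regulatory proteins bind stem loops in messenger RNAs when iron is scarce, which protects the receptor message from decay and blocks the translation of ferritin and ferroportin messages. RNA counts give the level of a message, in which a change of decay cannot be told from a change of transcription. They do not measure the second effect, which acts on translation.

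In hypoxia, ABCB6 rose in 3 of the 4 lines and HMOX1 in 2, and SLC11A2 fell in 2. Of the ferritin chains, the heavy chain FTH1 was called higher in HCT-116 cells only and the light chain FTL in T47D cells only. The mean of the other chain also rose in both lines (FTL from 1321 to 1925 CPM in HCT-116, FTH1 from 1085 to 1413 CPM in T47D cells). TFRC was called in A549 cells only, though its log2 fold change of 0.43 there was smaller than in HCT-116 (0.47) and T47D cells (0.69). With DESeq2, the test the paper names, TFRC was also called in HCT-116 (adjusted p = 0.0241) and T47D cells (0.0444), and FTL in HCT-116 cells (0.0267). A gene was called when its adjusted p was under 0.05 and its fold change over 1.2 (edgeR quasi-likelihood test, one fit per line, adjusted over all genes tested). In A549 cells 2 of 10 members rose and 0 fell, where 35.5% of all genes were called (17.6% higher and 17.8% lower). In HCT-116 cells 4 of 9 tested members rose and 2 fell, against 50.3% (23.3% and 27.0%). In PC3 cells 1 of 9 rose and 1 fell, against 32.3% (16.6% and 15.7%). In T47D cells 3 of 10 rose and 0 fell, against 13.2% (6.55% and 6.69%). The share of members called was 20% in A549, 66.7% in HCT-116, 22.2% in PC3 and 30% in T47D cells, so it was below the share of all genes in A549 and PC3 cells and above it in the others. The 3 T47D calls, of ABCB6, FTL and TF, were all lost without normoxia replicate 1 and all lost without normoxia replicate 2, which left 0 members called. TF was tested in T47D cells, and likewise in A549 cells, only because its hypoxic libraries passed the filter on low counts. It is part of the medians of these lines. The median log2 fold change of the tested members was 0.19, 0.47, -0.07 and 0.55 in A549, HCT-116, PC3 and T47D cells, against -0.01, -0.03, -0.01 and -0.01 over all genes. In libraries made from whole cultures, less RNA per cell and fewer cells that carry it cannot be told apart.

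**Figure D1:**
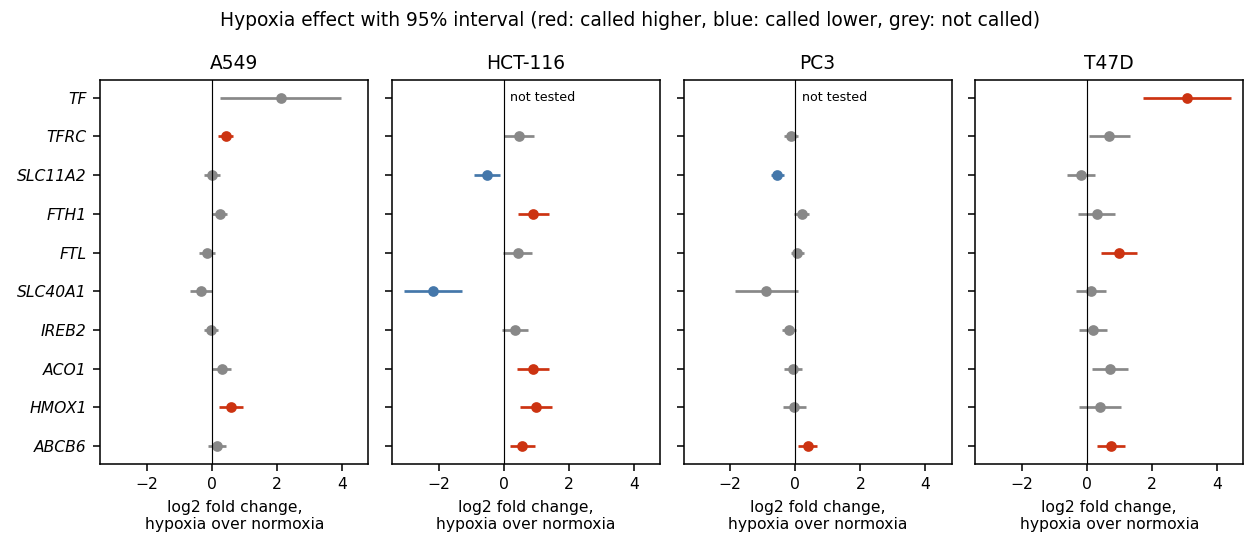
Log2 fold change of hypoxia over normoxia for each gene in each line, with its 95% interval from the edgeR fit of that line (3 libraries per state). Red points were called higher, blue points lower and grey points were not called. TF in T47D cells (3.08) lies farthest to the right and SLC40A1 in HCT-116 cells (-2.16) farthest to the left.

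Library totals ranged from 22698584 to 62850747 counts. The 6 hypoxia genes CA9, VEGFA, PGK1, BNIP3, EGLN3 and ADM rose in every line (6 of 6 in each), with a median log2 fold change of 1.67 in A549, 2.83 in HCT-116, 0.90 in PC3 and 3.08 in T47D cells. Markers of the labelled tissue were present in T47D cells (GATA3 at a normoxic mean of 708 CPM, which are counts scaled to library size, and PGR at 635 CPM), but of the markers of the other tissues HCT-116 cells carried CDX2 (11.8 CPM) with CDX1, VIL1 and CEACAM5 at 0 in normoxia, PC3 cells carried HOXB13 (75.1 CPM) with KLK3 at 0, and A549 cells had NKX2-1 and SFTPA1 at 0 in normoxia. The markers were not confined to 1 line. TFF1, a breast marker, had a lower mean log2 CPM in T47D (1.77) than in PC3 cells (4.48), which also carried GATA3 (4.62). CDH17, a colorectal marker, passed the filter on low counts in A549 (3.65) but not in HCT-116 cells. Of the blood cell markers, HBB was at 0 in every group, the group means of HBA1 reached 0.502 CPM and those of PTPRC 0.261 CPM, and CD68, a lysosomal protein of macrophages that other cells also make, rose in A549 and HCT-116 cells (log2 fold change 0.56 and 2.22). The part of these genes in the results was not tested.

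The stem loops that iron regulatory proteins bind are shown first, because they mark which messages that system can reach. The untranslated regions of the members were searched for a C, 5 bases, CAGTG with any base but G after it, and 5 bases that pair with the first 5 (Watson-Crick or G with T). Each stretch of 30 bases below is read 5′ to 3′ on the strand of the gene in GRCh37, with the 6 bases of the loop in capitals. TFRC held 4 such loops in its 3′ untranslated region, within 516 bases of each other:
TFRC loop at chr3:195777334-195777363: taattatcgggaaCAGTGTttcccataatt
TFRC loop at chr3:195777381-195777410: tctgtatcggagaCAGTGAtctccatatgt
TFRC loop at chr3:195777446-195777475: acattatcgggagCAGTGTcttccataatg
TFRC loop at chr3:195777850-195777879: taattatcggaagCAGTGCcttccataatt
FTH1, FTL and SLC40A1 each held 1 loop, in the 5′ untranslated region, where a bound protein blocks translation:
FTH1 loop at chr11:61735046-61735075: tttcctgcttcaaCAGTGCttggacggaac
FTL loop at chr19:49468591-49468620: tctcttgcttcaaCAGTGTttggacggaac
SLC40A1 loop at chr2:190445387-190445416: ccaacttcagctaCAGTGTtagctaagttt
SLC11A2 held a loop in the 3′ untranslated region of 6 transcripts when 1 of the 5 stem positions was allowed not to pair:
SLC11A2 loop at chr12:51382052-51382081: tagccatcagagcCAGTGTgtttctatggt

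The loops of the ferritin chains matched at 27 of 30 bases and differed as T2C, C5T and C19T (FTH1 base, position from the 5′ end of the stretch, FTL base), while the FTH1 and SLC40A1 loops matched at 13 of 30. Any pair of TFRC loops matched at 18 to 25 of 30. A loop with all 5 positions paired was found in the 5′ untranslated region of 0.144% of 20149 genes and in the 3′ untranslated region of 0.744%, and with 1 unpaired position in 1.05% and 4.61%. By the same search TF also had a fully paired 3′ match, and IREB2 and ACO1 a 3′ match with 1 unpaired position. A match describes letters and does not show that a protein binds there.

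TFRC, which encodes the transferrin receptor, rose in A549 cells. Its normoxic levels there were 451, 459 and 470.4 CPM and its hypoxic levels 567, 618 and 676 CPM, so that every hypoxic library exceeded every normoxic one. Its log2 fold change was 0.43 ± 0.11 (SE), with an adjusted p of 0.00884. In HCT-116 cells TFRC measured 682, 561 and 764 CPM in normoxia and 1139, 953 and 926 CPM in hypoxia, again without overlap, but the log2 fold change of 0.47 ± 0.21 (SE) was not called (adjusted p = 0.0821). In T47D cells the levels were 1734, 929.7 and 1883 CPM in normoxia and 2756, 2571 and 2420.0 CPM in hypoxia. They did not overlap either, and normoxia replicate 2 lay far below the others of its group. The log2 fold change in T47D cells was 0.69 ± 0.29 (SE), with an adjusted p of 0.127. PC3 cells held 1236, 1298 and 1286 CPM in normoxia and 1271, 1238 and 1121 CPM in hypoxia, which overlapped, with a log2 fold change of -0.13 ± 0.092 (SE). The call in A549 cells was lost in one fit of all 24 libraries (adjusted p = 0.126), whereas in that fit TFRC was called in HCT-116 (0.0126) and T47D cells (0.00552).

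TF, which encodes transferrin itself, is a liver gene and was near the limit of detection. It had 0 counts in all 6 PC3 libraries, where the depth allows a level of up to 0.0529 to 0.132 CPM per library (a floor of 3 counts, which covers counting error only). In T47D cells 1, 9 and 9 counts were found in normoxia and 45, 82 and 45 in hypoxia, which is 0.0232, 0.131 and 0.143 CPM against 0.729, 1.28 and 0.823 CPM. Every hypoxic T47D library was above every normoxic one, and the fitted log2 fold change was 3.08 ± 0.63 (SE) (adjusted p = 0.00948). TF passed the filter on low counts in T47D cells only through its hypoxic libraries, so that p is not independent of the rise itself. The call was lost without normoxia replicate 1 (adjusted p = 0.0764) or normoxia replicate 2 (0.051). A549 libraries held 50, 7 and 0 counts in normoxia and 148, 62 and 47 in hypoxia, which overlapped, with a log2 fold change of 2.11 ± 0.86 (SE) that was not called (adjusted p = 0.0734). That value became a call without normoxia replicate 1, at a log2 fold change of 4.60 and an adjusted p of 0.0019, and with no filter on low counts (2.11, 0.0305). Replicate 1 held the most TF counts of the normoxic A549 libraries. TF passed the filter in A549 cells through its hypoxic libraries too, so the p values of the filtered fits are not independent of the rise there. HCT-116 libraries held 6, 24 and 6 counts in normoxia and 0, 2 and 1 in hypoxia, all hypoxic counts lying below the normoxic ones, and TF did not pass the filter on low counts in that line. TF shares its strand and part of its span with SRPRB in the annotation, so its count is uncertain there.

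SLC11A2, which encodes the divalent metal transporter DMT1, fell in HCT-116 and PC3 cells. In PC3 cells its level was 59.9, 60.6 and 58.9 CPM in normoxia and 39.8, 43.2 and 44.3 CPM in hypoxia, with a wide gap between the groups. The fitted log2 fold change was -0.55 ± 0.086 (SE) (adjusted p = 0.0031). In HCT-116 cells it measured 42, 52.9 and 57.6 CPM in normoxia and 39.5, 42 and 34.1 CPM in hypoxia, where hypoxia replicate 2 and normoxia replicate 1 were nearly equal and the other libraries did not cross, and the log2 fold change was -0.52 ± 0.19 (SE) (adjusted p = 0.0326). The HCT-116 call was lost when hypoxia replicate 1, 2 or 3 was left out (adjusted p = 0.0873, 0.0539 and 0.248) or normoxia replicate 2 or 3 (0.113 and 0.139), with library totals (0.0711) and with no filter (0.0923). A549 cells gave 58.6, 64 and 57.1 CPM in normoxia and 57.9, 56.4 and 65.7 CPM in hypoxia, and T47D cells 82.2, 63.5 and 93.8 CPM and 68.6, 78 and 75.3 CPM. Both lines overlapped between states, with log2 fold changes of -0.0043 ± 0.11 (SE) and -0.19 ± 0.20 (SE).

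**Figure D2:**
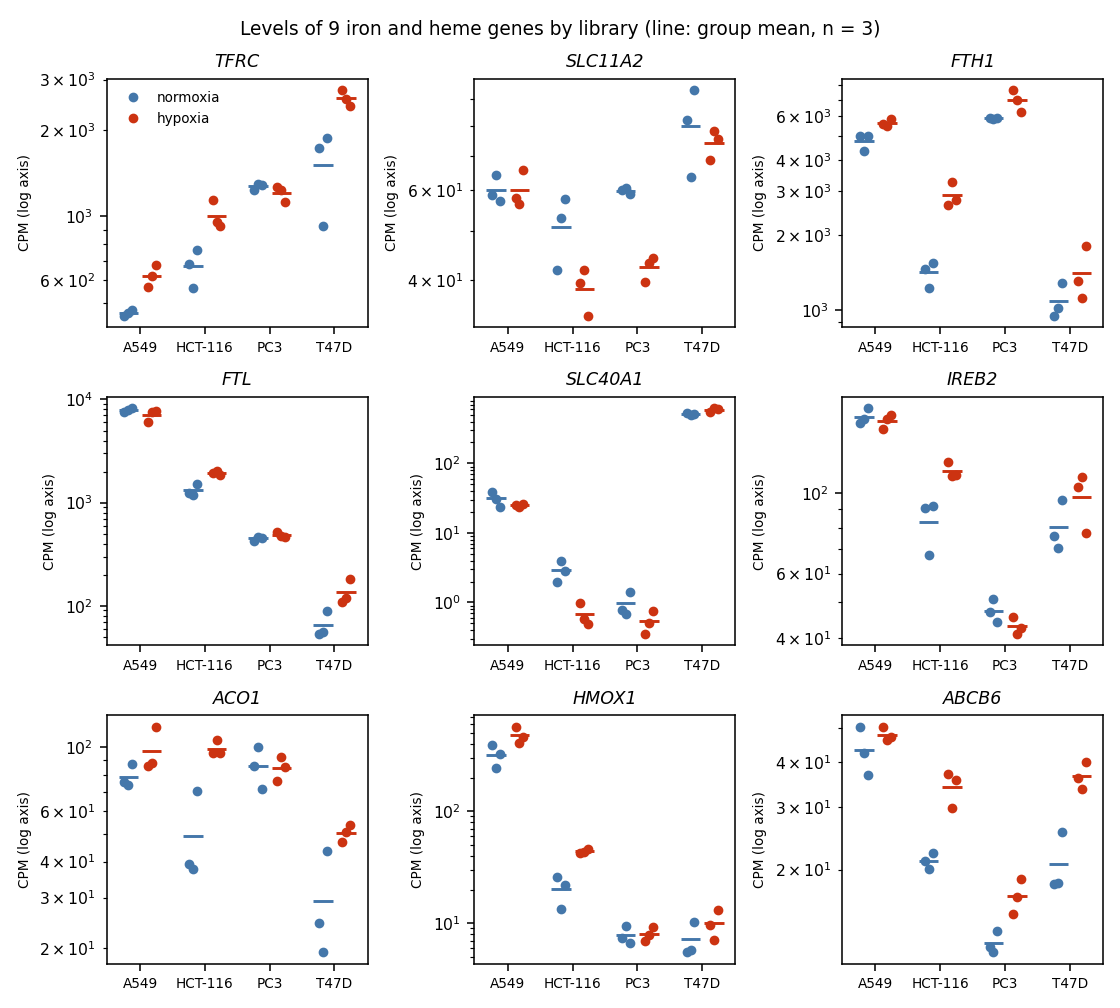
Level of 9 of the genes in each of 24 libraries, in CPM on a log axis, by cell line (blue, normoxia; red, hypoxia; horizontal lines, means of 3 libraries). The axes differ between panels. TF is left out because several of its libraries hold 0 counts. SLC40A1 in HCT-116 cells and SLC11A2 in PC3 cells show hypoxic libraries below every normoxic one.

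FTH1, the ferritin heavy chain that oxidizes iron on entry, rose in HCT-116 cells. There it measured 1469.7, 1230.3 and 1554 CPM in normoxia and 2654, 3278 and 2767 CPM in hypoxia, so that the lowest hypoxic library was well above the highest normoxic one. The log2 fold change was 0.91 ± 0.22 (SE), with an adjusted p of 0.00441. In A549 cells the levels were 4978, 4343 and 4996 CPM in normoxia and 5564, 5492 and 5874 CPM in hypoxia, and PC3 cells gave 5899, 5867 and 5882 CPM and 7634, 6991 and 6267 CPM. Neither line overlapped between states, but the log2 fold changes of 0.24 ± 0.11 (SE) and 0.19 ± 0.10 (SE) were not called (adjusted p = 0.1 and 0.158). T47D cells had 949.8, 1020.4 and 1284 CPM in normoxia and 1313, 1118 and 1808 CPM in hypoxia, which overlapped (log2 fold change 0.31 ± 0.26 (SE)).

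FTL, the ferritin light chain that helps the mineral core to form, rose in T47D cells and was called in no other line by the main edgeR fits. T47D cells held 53.2, 55.9 and 88.1 CPM in normoxia and 108, 119 and 180.3 CPM in hypoxia. Every hypoxic library was above every normoxic one, and replicate 3 was the highest of its group in both states. The log2 fold change was 0.98 ± 0.25 (SE) (adjusted p = 0.0265), and the call was lost without normoxia replicate 1 (adjusted p = 0.182) or normoxia replicate 2 (0.125). In HCT-116 cells FTL measured 1235, 1198 and 1530.2 CPM in normoxia and 1919.7, 2019 and 1836 CPM in hypoxia, without overlap, with a log2 fold change of 0.43 ± 0.21 (SE) that was not called (adjusted p = 0.11). A549 cells gave 7597, 7830.5 and 8192 CPM in normoxia and 6036, 7486 and 7763 CPM in hypoxia, and PC3 cells 428, 465 and 455 CPM and 516, 478 and 461 CPM. Both overlapped, with log2 fold changes of -0.16 ± 0.12 (SE) and 0.058 ± 0.092 (SE).

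The annotation lists 25 pseudogene copies of FTH1 and 16 of FTL, and fragments without a unique position were removed before counting, so the level of either gene is uncertain where copies match it. FTH1 also overlaps BEST1 on the opposite strand. The libraries were made with a directional kit, but the strand setting of the counting is not given in the sources used here.

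The ratio of heavy to light chain message, taken per kb of transcript, separated the lines. In normoxia it was 0.474, 0.402 and 0.442 in A549 cells and 0.861, 0.744 and 0.735 in HCT-116 cells. Before the division by length, the normoxic HCT-116 mean of FTH1 (1418 CPM) was above that of FTL (1321 CPM). No order of abundance is therefore read from that line. In PC3 cells the ratio was 9.97, 9.13 and 9.36, and T47D cells gave 12.9, 13.2 and 10.5. In hypoxia it was 0.667, 0.531 and 0.548 in A549, 1.001, 1.18 and 1.09 in HCT-116, 10.7, 10.6 and 9.84 in PC3 and 8.80, 6.78 and 7.26 in T47D cells. The hypoxic ratios lay above the normoxic ones without overlap in A549 and HCT-116 cells and below them in T47D cells. Differences of the mean log2 ratio were 0.40, 0.48, 0.13 and -0.69 in A549, HCT-116, PC3 and T47D cells, with exact two-sided permutation p = 0.1, 0.1, 0.2 and 0.1, where 0.1 is the smallest p that 3 against 3 libraries allow. Over all lines the mean difference was 0.082 (exact permutation of states within lines, p = 0.49), as the lines moved in opposite directions. The ratio of TFRC to FTH1 message, uptake against storage, differed by -0.025 over all lines (exact permutation, p = 0.853), with 0.18, -0.44, -0.32 and 0.47 in A549, HCT-116, PC3 and T47D cells. The adjusted p values over the 3 ratios tested are 0.734 for FTH1 to FTL, 0.853 for TFRC to FTH1 and 0.00169 for ACO1 to IREB2.

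**Figure D3:**
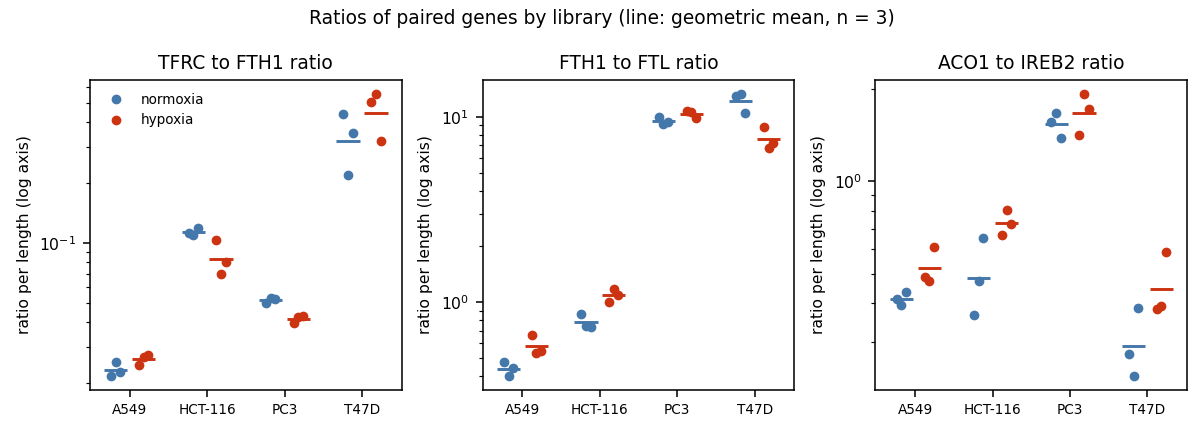
Ratios of 3 gene pairs in each library, per kb of transcript on log axes (blue, normoxia; red, hypoxia; horizontal lines, geometric means of 3 libraries). The middle panel shows the FTH1 to FTL ratio near 10 in PC3 and T47D cells and under 1.2 in the other lines, and the right panel the higher ACO1 to IREB2 ratio of hypoxic libraries in A549 and HCT-116 cells.

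SLC40A1 encodes ferroportin, the iron exporter of vertebrate cells. It fell in HCT-116 cells, from 1.94, 3.89 and 2.84 CPM in normoxia to 0.984, 0.575 and 0.485 CPM in hypoxia, which is 108, 174 and 178 counts against 57, 30 and 11. Hypoxic libraries lay below all normoxic ones, with a log2 fold change of -2.16 ± 0.42 (SE) and an adjusted p of 0.000988, and the call held with each library left out. T47D cells had far more of this message, 525, 494 and 516 CPM in normoxia and 551, 618 and 602 CPM in hypoxia. Their hypoxic libraries were the higher ones without overlap, yet the log2 fold change of 0.12 ± 0.21 (SE) was not called (adjusted p = 0.724). A549 cells held 39.4, 31.2 and 23.9 CPM in normoxia and 25.1, 24 and 25.9 CPM in hypoxia, and PC3 cells 0.787, 0.681 and 1.43 CPM and 0.351, 0.509 and 0.744 CPM, which overlapped in both lines. The log2 fold changes were -0.34 ± 0.16 (SE) in A549 cells (adjusted p = 0.112) and -0.89 ± 0.44 (SE) in PC3 cells (adjusted p = 0.14). The A549 value became a call without normoxia replicate 3 (log2 fold change -0.50, adjusted p = 0.0118) and with scaling to library totals (-0.46, 0.0468).

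IREB2 and ACO1 encode the iron regulatory proteins. IREB2 makes IRP2, which is degraded when iron is plentiful, and ACO1 makes IRP1, which carries an iron-sulfur cluster and acts as an aconitase when iron is plentiful. ACO1 rose in HCT-116 cells, where it measured 39.2, 37.6 and 70.5 CPM in normoxia and 95.5, 105 and 95.6 CPM in hypoxia. All hypoxic libraries were the higher ones and normoxia replicate 3 lay closest to them, and the log2 fold change was 0.90 ± 0.23 (SE) (adjusted p = 0.00508). In T47D cells ACO1 had 24.4, 19.4 and 43.5 CPM in normoxia and 46.8, 50.9 and 53.5 CPM in hypoxia, without overlap. The log2 fold change of 0.72 ± 0.26 (SE) was not called there (adjusted p = 0.0773), but it was called when same-numbered T47D libraries were treated as pairs (log2 fold change 0.79, adjusted p = 0.0256) and without normoxia replicate 3 (1.10, 0.00895). A549 cells gave 75.9, 73.9 and 87.2 CPM in normoxia and 85.7, 88.3 and 118 CPM in hypoxia, and PC3 cells 86, 100.5 and 71.7 CPM and 76.2, 92.4 and 85.5 CPM. Both overlapped, with log2 fold changes of 0.29 ± 0.13 (SE) and -0.072 ± 0.12 (SE).

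IREB2 was called in no line. HCT-116 cells had 90.8, 67.5 and 91.8 CPM in normoxia and 121, 111 and 112 CPM in hypoxia, the only line without overlap, with a log2 fold change of 0.35 ± 0.19 (SE) (adjusted p = 0.144). Levels in A549 cells were 156, 159 and 170.4 CPM in normoxia and 149, 159 and 164 CPM in hypoxia, 47, 51 and 44.1 CPM and 45.6, 40.9 and 42.4 CPM in PC3 cells, and for T47D cells 76.1, 70.7 and 95.4 CPM and 104, 110.2 and 77.3 CPM. The log2 fold changes in these lines were -0.045 ± 0.10 (SE), -0.19 ± 0.091 (SE) and 0.19 ± 0.20 (SE). One fit of all 24 libraries called IREB2 in HCT-116 cells (log2 fold change 0.46, adjusted p = 0.0113).

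The ratio of ACO1 to IREB2 message rose in hypoxia over the 4 lines. Its mean log2 difference was 0.41 (exact two-sided permutation of states within lines over 160000 arrangements, p = 0.000562), and the difference was above 0 in 4 of 4 lines. Per line the difference was 0.33 in A549 (p = 0.1), 0.59 in HCT-116 (p = 0.1), 0.13 in PC3 (p = 0.4) and 0.61 in T47D cells (p = 0.2), each by exact permutation. In A549 cells the ratio was 0.414, 0.395 and 0.435 in normoxia and 0.488, 0.472 and 0.61 in hypoxia, and in HCT-116 cells 0.367, 0.474 and 0.653 and 0.668, 0.805 and 0.726. The PC3 ratio was 1.55, 1.67 and 1.38 in normoxia and 1.42, 1.92 and 1.71 in hypoxia, and that of T47D cells 0.273, 0.233 and 0.388 and 0.383, 0.393 and 0.588. The states overlapped in PC3 and T47D cells and not in the other lines.

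HMOX1 encodes heme oxygenase 1, the inducible enzyme that opens the heme ring and frees its iron. It rose in A549 and HCT-116 cells. HCT-116 cells held 26, 13.5 and 21.9 CPM in normoxia and 42.4, 43.2 and 46.4 CPM in hypoxia, and the narrow hypoxic group lay above every normoxic library. The log2 fold change was 0.99 ± 0.23 (SE) (adjusted p = 0.00338). A549 cells held 392, 245 and 328 CPM in normoxia and 571, 409.8 and 458 CPM in hypoxia, separated by a small gap, with a log2 fold change of 0.57 ± 0.17 (SE) (adjusted p = 0.0211). The A549 call was lost without hypoxia replicate 1 (adjusted p = 0.0751) or normoxia replicate 2 (0.0858), with scaling to library totals (0.0553) and when all 24 libraries shared a fit (0.112). PC3 cells had 7.37, 9.46 and 6.66 CPM in normoxia and 6.94, 7.80 and 9.21 CPM in hypoxia, and T47D cells 5.50, 5.81 and 10.2 CPM and 9.70, 7.07 and 13.2 CPM. Both overlapped, with log2 fold changes of -0.025 ± 0.17 (SE) and 0.41 ± 0.29 (SE).

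ABCB6, an ABC transporter of porphyrins, rose in 3 lines. HCT-116 cells had 21.1, 20.1 and 22.2 CPM in normoxia and 37.2, 29.7 and 35.6 CPM in hypoxia, PC3 cells 12.1, 11.7 and 13.5 CPM and 15, 16.7 and 18.9 CPM, and T47D cells 18.2, 18.4 and 25.6 CPM and 36.2, 33.7 and 40.2 CPM. In these lines every hypoxic library was above every normoxic one. The log2 fold changes were 0.57 ± 0.18 (SE) in HCT-116 (adjusted p = 0.0189), 0.39 ± 0.13 (SE) in PC3 (adjusted p = 0.0463) and 0.75 ± 0.20 (SE) in T47D cells (adjusted p = 0.0285). A549 cells, with 50.4, 42.5 and 36.8 CPM in normoxia and 50.1, 46.3 and 47.2 CPM in hypoxia, overlapped between states (log2 fold change 0.14 ± 0.12 (SE)). The HCT-116 call was lost without hypoxia replicate 3 (adjusted p = 0.0707), and the T47D call without hypoxia replicate 1 (0.0793), normoxia replicate 1 (0.166) or normoxia replicate 2 (0.121). The PC3 call was lost without any of hypoxia replicates 1, 2 and 3 (0.0522, 0.111 and 0.156) or normoxia replicates 1 and 2 (0.119 and 0.0968), with library totals (0.0634) and in one fit of all 24 libraries (0.0814).

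Hypoxia-inducible factors bind the words ACGTG and GCGTG, and the promoters of ABCB6, TFRC, FTL and ACO1 are shown as those of members that hold such a word before their start and were called higher in at least 1 line. RefSeq windows of 250 bases before to 50 after the start (GRCh38.p14) were on hand for 8 of the 10 members and were searched for either word on both strands. In ABCB6 the palindrome that holds ACGTG on both strands began 156 bases before the start, and in TFRC ACGTG began 88 bases before it. FTL held GCGTG at 2 positions and ACGTG at 1, of which the GCGTG on the strand of the gene is printed, and ACO1 held GCGTG at 1 (capitals mark the word as it reads on the strand of the gene):
ABCB6 promoter at chr2:219219096-219219125: cccgccctgggcACGTGaccaagccggctc
TFRC promoter at chr3:196082161-196082190: cctcgcgagcgtACGTGcctcaggaagtga
FTL promoter at chr19:48965120-48965149: ggcgctacaggcGCGTGacttccccttgct
ACO1 promoter at chr9:32384626-32384642: agagggggcggaGCGTG
SLC11A2, which fell in 2 lines, had 6 matches to GCGTG over 3 of its 4 windows, more matches but also more windows than any other member. IREB2 held GCGTG and TF held ACGTG in 1 of 2 windows each, and SLC40A1 held neither word. As 48.4% of 27305 windows, with 1 window per gene symbol, hold one of these words, the matches describe the letters only.

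Counted by library rather than by test, hypoxic levels lay above all normoxic levels for 3 of 10 tested members in A549 cells (23.6% of all genes did so), 7 of 9 in HCT-116 (32.8%), 2 of 9 in PC3 (28.4%) and 6 of 10 in T47D cells (19%). They lay below all normoxic levels for 0 members in A549 (24.3% of all genes), 1 in HCT-116 (27.6%), 1 in PC3 (22.2%) and 0 in T47D cells (13.3%). In either direction 3, 8, 3 and 6 members were separated, against 47.9%, 60.4%, 50.6% and 32.3% of all genes. The share of members separated upward was thus 77.8% in HCT-116 and 60% in T47D cells, above that of all genes, and 22.2% in PC3 cells, below it. The T47D share includes TF, which was tested there only through its hypoxic libraries, so its separation is not independent of the filter.

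The hypoxia effect itself differed between lines for TF, FTL and SLC40A1, which is 3 of 10 members, against 18.3% of all genes (edgeR interaction of line and state, all 24 libraries, adjusted p = 0.0448, 0.0185 and 0.00206). The smallest adjusted p of the other members was 0.0673, for FTH1. By pairs of lines, the effect on SLC40A1 was 1.67 higher on the log2 scale in A549 than in HCT-116 cells (adjusted p = 0.006, called for 16.7% of all genes) and lower in HCT-116 than in T47D cells, with a difference of -2.21 (HCT-116 minus T47D, adjusted p = 0.000824, 9.07%). For FTL the effect was lower in A549 than in T47D cells, with a difference of -1.20 (A549 minus T47D) (adjusted p = 0.0223, 2.11%). For TF the effect in HCT-116 cells, where its counts were lower in hypoxia, lay below that in A549 cells, with a difference of 5.33 (A549 minus HCT-116, adjusted p = 0.0301). It also lay below that in T47D cells, with a difference of -6.38 (HCT-116 minus T47D, adjusted p = 0.023). Both were fitted on low counts. TF passed the filter of this fit through its A549 and T47D libraries, and it had not passed the filter within HCT-116 or PC3 cells. FTH1 was affected more in HCT-116 than in A549 cells by 0.79 (adjusted p = 0.0384) and than in PC3 cells by 0.79 (adjusted p = 0.0413, 14.9% of all genes). HMOX1 and ACO1 were also affected more in HCT-116 than in PC3 cells, by 1.08 (adjusted p = 0.0438) and 1.03 (adjusted p = 0.0366). No member was called between A549 and PC3 cells (0.758% of all genes) or between PC3 and T47D cells (2.25%). The interaction itself was not called for FTH1, HMOX1 or ACO1 (adjusted p = 0.0673, 0.138 and 0.077), so their pairwise differences are weaker results. The pairwise comparisons share the libraries of each line, and their p values were adjusted over genes and not over the pairs. With replicate 1, 2 or 3 left out of every line, the interaction was called for 1, 0 and 5 members. The p values measure the spread between these libraries, as nothing in the labels says that replicates came from separate cultures.

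For each of the 9 members that could be tested, the normoxic means spanned a wider range between lines than hypoxia moved the level in any line. The gap was widest for SLC40A1, FTL and HMOX1. It was narrowest for SLC11A2, with a 1.57-fold span and a hypoxic fold of 0.684 in PC3 cells. All 9 members that could be tested differed between the lines (edgeR, 12 normoxic libraries), as did 93.5% of all genes, and by pairs of lines 64.9% of all genes differed between A549 and HCT-116, 60.0% between A549 and PC3, 66.6% between A549 and T47D, 65.6% between HCT-116 and PC3, 68.5% between HCT-116 and T47D and 67.8% between PC3 and T47D cells. SLC40A1 stood at a normoxic mean of 512 ± 16.2 CPM (SD, n = 3) in T47D cells and 0.967 ± 0.407 CPM in PC3 cells, a 529-fold difference, with A549 (31.5 ± 7.75 CPM) and HCT-116 cells (2.89 ± 0.974 CPM) between them and each neighbour in this order different from the next. FTL spanned 120-fold, from 7873 ± 300.0 CPM in A549 through 1321 ± 182 CPM in HCT-116 and 449.6 ± 18.97 CPM in PC3 to 65.7 ± 19.5 CPM in T47D cells, again with every neighbour different. HMOX1 spanned 44.9-fold, with 322 ± 73.4 CPM in A549, 20.4 ± 6.40 CPM in HCT-116, 7.83 ± 1.46 CPM in PC3 and 7.17 ± 2.63 CPM in T47D cells, of which the last pair was not told apart (adjusted p = 0.692). FTH1 spanned 5.42-fold and ran from PC3 and A549, which did not differ beyond their spread (adjusted p = 0.209), to HCT-116 and T47D cells, which did not either (0.0985). T47D cells therefore had the most ferroportin message and the lowest means of FTL, FTH1 and HMOX1, whereas A549 cells had the most FTL and HMOX1 message.

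The other members spanned 1.57-fold to 3.48-fold. TFRC was ordered T47D, PC3, HCT-116 and A549, with a difference between neighbours called for PC3 and HCT-116 only. SLC11A2 was ordered T47D, A549, PC3 and HCT-116, with only T47D and A549 told apart (adjusted p = 0.0356), and its test across lines was lost without T47D normoxia replicate 3 (adjusted p = 0.0581). IREB2 and ABCB6 were both ordered A549, HCT-116, T47D and PC3, with the middle pair not told apart (adjusted p = 0.816 and 0.893). ACO1 was ordered PC3, A549, HCT-116 and T47D, of which PC3 and A549 were not told apart (adjusted p = 0.719).

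Per kb of transcript, normoxic A549 cells held 9039 CPM of FTL, 3967 of FTH1, 207 of HMOX1 and 91.8 of TFRC. T47D cells held 902 CPM per kb of FTH1, 302 of TFRC, 154 of SLC40A1 and 75.5 of FTL. The values of receptor and exporter message thus exceeded that of light chain message in that line, though copies of FTL leave its level uncertain. TF is left out of this comparison because its annotated transcript is 20166 bases long, far beyond the coding message. FTL, FTH1 and HMOX1 are known targets of the antioxidant factor NRF2, and 8 other NRF2 targets (NQO1, GCLM, GCLC, TXNRD1, SRXN1, SLC7A11, AKR1B10 and AKR1C1) were highest in A549 cells in 8 of 8 cases and lowest in T47D cells in 7. Their summed normoxic level was 9819 to 10825 CPM in A549 libraries, 1343 to 1691 in HCT-116, 1456 to 1778 in PC3 and 691 to 1109.6 in T47D libraries. In hypoxia the sums were 9963 to 10662.5 CPM in A549, 1626 to 1826 in HCT-116, 1240.0 to 1365 in PC3 and 687 to 877 in T47D libraries. FTH1 itself had its highest normoxic mean in PC3 cells (5882 CPM, against 4772 CPM in A549 cells). The share of all genes that were highest in A549 or lowest in T47D cells was not counted. The part of NRF2 and these targets in the levels of FTL, FTH1 and HMOX1 was not tested.

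**Figure D4:**
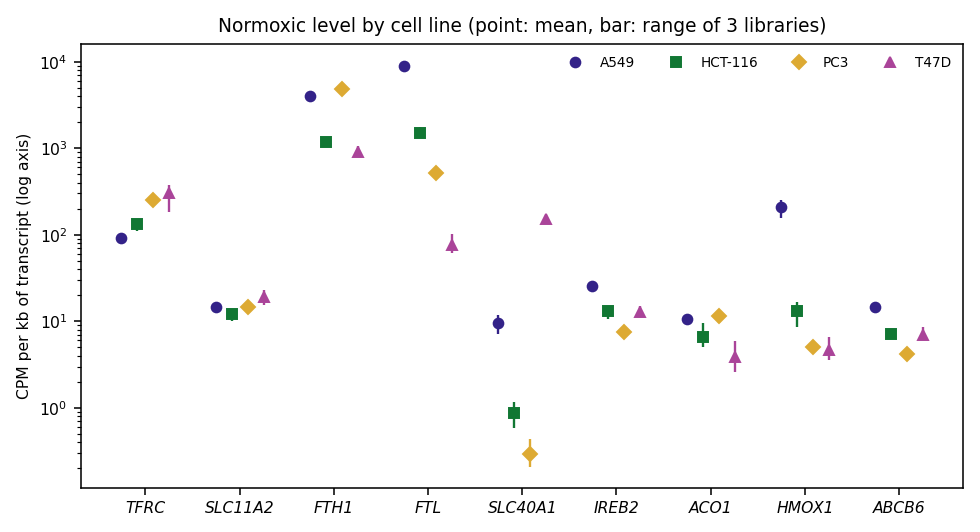
Normoxic level of 9 of the genes by cell line, in CPM per kb of annotated transcript on a log axis (points, means; bars, the range of 3 libraries). SLC40A1 runs from 0.290 in PC3 to 154 CPM per kb in T47D cells and FTL from 75.5 in T47D to 9039 in A549 cells, while SLC11A2 stays between 12.3 and 19.3.

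Other genes of iron and heme handling were counted in 6 lists with 83 symbols in the files. Of those tested, 14 of 72 rose and 19 fell in A549 cells, which is 19.4% and 26.4% against 17.6% and 17.8% of all genes. In HCT-116 cells 10 of 70 rose and 22 fell (14.3% and 31.4%, against 23.3% and 27.0%), in PC3 cells 7 of 68 rose and 12 fell (10.3% and 17.6%, against 16.6% and 15.7%), and in T47D cells 2 of 70 rose and 5 fell (2.86% and 7.14%, against 6.55% and 6.69%). The shares that fell in PC3 and T47D cells were thus near those of all genes. The T47D count of 7 was 11 when same-numbered libraries were treated as pairs, 0 without normoxia replicate 1, 3 without normoxia replicate 2, 4 without hypoxia replicate 1 or 2, 23 without hypoxia replicate 3 and 14 without normoxia replicate 3. The PC3 count of 19 was 9 without hypoxia replicate 1 or 2. The surplus of genes that fell came from 1 list, mitochondrial iron and iron-sulfur cluster assembly. In the other 5 lists 12 of 40 genes rose and 5 fell in A549, 9 of 38 rose and 4 fell in HCT-116, 7 of 36 rose and 4 fell in PC3, and 2 of 38 rose and 2 fell in T47D cells.

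Of the 32 genes of mitochondrial iron and iron-sulfur cluster assembly, all tested in each line, 14 fell and 2 rose in A549 cells, 18 fell and 1 rose in HCT-116, 8 fell and 0 rose in PC3, and 3 fell and 0 rose in T47D cells. The shares that fell were 43.8%, 56.2%, 25.0% and 9.38%, against 17.8%, 27.0%, 15.7% and 6.69% of all genes. The median log2 fold changes were -0.29, -0.62, -0.25 and -0.22. BOLA3, an assembly factor for lipoyl synthase and respiratory complexes, fell in A549, HCT-116, PC3 and T47D cells by 0.71, 1.71, 0.61 and 1.16 on the log2 scale. NFU1, which delivers clusters to the same enzymes, had log2 fold changes of -0.32, -1.27, -0.49 and -0.75, and FAM96A, a factor of cytosolic cluster delivery to ACO1, of -0.64, -2.31, -0.78 and -0.93, all called lower. ISCU, the scaffold on which clusters are built, fell in A549, HCT-116 and PC3 cells by 0.56, 0.85 and 0.46, and ISCA2 and FDX1, a late assembly factor and a ferredoxin, fell in the same 3 lines, by 0.42, 1.97 and 0.52 and by 0.47, 0.81 and 0.45. In T47D cells the calls of BOLA3, NFU1 and FAM96A were lost without normoxia replicate 1 (adjusted p = 0.127, 0.251 and 0.207) or normoxia replicate 2 (0.091, 0.131 and 0.178), and those of NFU1 and FAM96A also without hypoxia replicate 1 (0.159 and 0.101) or 2 (0.174 and 0.112). With each library of a line left out in turn, the PC3 calls of ISCA2 and NFU1 and the A549 call of NFU1 were lost in 4 of 6 cases, the PC3 call of BOLA3 and the A549 call of ISCA2 in 3, and the PC3 calls of FAM96A in 2 and of ISCU in 1.

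Among the uptake genes, STEAP1, of the metalloreductase family, fell in every line, with log2 fold changes of -1.28, -2.45, -0.79 and -1.36 in A549, HCT-116, PC3 and T47D cells. MFI2, the membrane-bound transferrin homologue, rose in A549, HCT-116 and PC3 cells (0.56, 0.98 and 0.45), and its PC3 call was lost without hypoxia replicate 2 (adjusted p = 0.0586). LRP1, a large endocytic receptor that takes up heme bound to hemopexin among many other ligands, rose in every line, by 2.76, 1.14, 1.45 and 2.39. The T47D values of LRP1 and STEAP1 were not called without normoxia replicate 1 (adjusted p = 0.0572 and 0.0684). CPOX, an enzyme of heme synthesis, rose in A549, HCT-116 and PC3 cells (0.68, 0.90 and 0.59), as did FURIN, the protease that processes hepcidin precursor (0.62, 0.93 and 0.82). TMPRSS6, a protease that restrains hepcidin in liver, was barely detected in A549 cells and its fall of 1.84 there lost its call without any 1 of the libraries but hypoxia replicate 3.

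Of the 12 genes of the NRF2 and BACH1 list, 3 rose and 2 fell in A549, 4 rose and 2 fell in HCT-116, 4 rose and 4 fell in PC3 and 0 were called in T47D cells. All 12 were tested in A549 and PC3, 11 in HCT-116 and 10 in T47D cells, and the shares that rose and fell were 25.0% and 16.7% in A549 (17.6% and 17.8% of all genes), 36.4% and 18.2% in HCT-116 (23.3% and 27.0%), and 33.3% and 33.3% in PC3 cells (16.6% and 15.7%), while 13.2% of all genes were called in T47D cells. SLC7A11, which imports cystine, fell in A549, HCT-116 and PC3 cells by 0.68, 0.71 and 0.60. AKR1C1 rose in PC3 (1.94) and fell in A549 cells (-0.53). The PC3 call of AKR1C1 was lost without hypoxia replicate 1 (adjusted p = 0.067) or normoxia replicate 1 (0.071), its A549 call without normoxia replicate 1 (0.0623), and the SLC7A11 calls without hypoxia replicate 2 in HCT-116 (0.0544) and without hypoxia replicate 2 or 3 or normoxia replicate 1 in PC3 cells (0.0843, 0.0709 and 0.0676).

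**Figure D5:**
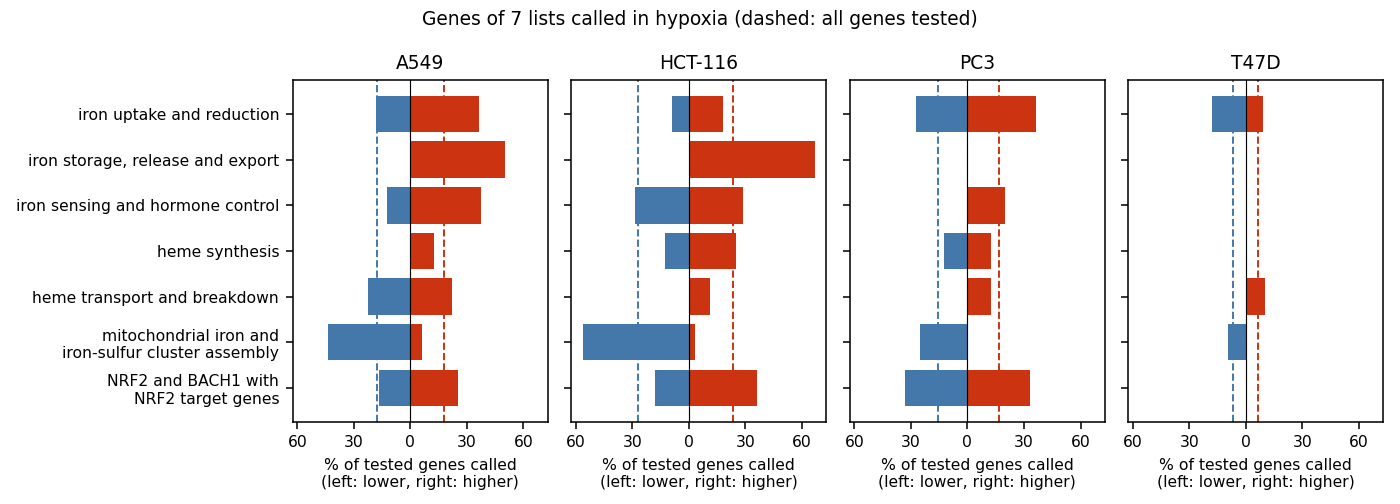
Share of the tested genes of 7 lists called lower (blue, to the left) or higher (red, to the right) in hypoxia, by cell line, in percent. Dashed lines mark the shares of all genes tested. Mitochondrial iron and iron-sulfur cluster assembly reaches 56.2% lower in HCT-116 cells, and the bars rest on 3 to 32 genes.

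Within lines, the genes whose levels followed each member most closely over the 24 libraries (log2 CPM centred within each line, 11269 genes compared, as a description) were DERL1 and DARS for TFRC (r = 0.91 and 0.90), EIF2S3 and RNF114 for SLC11A2 (0.88 and 0.87), and SH3BGRL3 and SLC25A1 for FTH1 (0.97 and 0.97). For FTL they were GMPPA and FDPS (0.94 and 0.92), and for SLC40A1 TMEM218 and ACN9 (0.92 and 0.91). ADCK3 was 1 of the 2 closest to HMOX1 (0.90), SUV420H1 and FOXJ3 followed IREB2 (0.93 and 0.92), ELP3 and EIF3D followed ACO1 (0.97 and 0.96), and MVK and EGLN1 followed ABCB6 (0.90 and 0.89). The libraries share a line, an oxygen state and a scaling, so these values also hold what hypoxia did to both genes.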

How the data were processed

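Polyadenylated RNA of 24 libraries (8 groups of 3) was analyzed. The authors trimmed reads with Trim Galore 0.3.3, aligned them to GRCh37 with HISAT2, removed fragments without a unique position with Picard 2.0.1 and counted the rest per gene with HTSeq 0.5.4p3 in intersection-strict mode. Versions are from the submitters' processing notes. The deposited values are raw whole-number counts for each gene symbol. Low totals and copies of a gene limit what they resolve, and no molecular identifiers were used. The floors cover counting error only. The intervals and SE of fold changes come from the edgeR fits and also include the spread between libraries.

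From these counts, edgeR 4.0.16 in R 4.3.3 (filterByExpr, TMM, quasi-likelihood test) gave 1 fit per line, with Benjamini-Hochberg adjustment over all genes tested and calls where the fold change passed 1.2 and the adjusted p was under 0.05. One fit of all 24 libraries tested the interaction of line and state, and one of the 12 normoxic libraries tested levels. CPM were scaled by TMM over all libraries and log2 CPM used a prior count of 2. Ratios added 2 counts to each gene and were tested by exact permutation. Transcript lengths, untranslated regions and loops came from GENCODE 44 on GRCh37, and promoters from RefSeq. The fits were tested on simulated counts.

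The members and the lists were chosen with earlier results of these data known. All members were described, and genes of the other lists were named if called in the same direction in 3 or more lines or if they had the largest rise or fall of a list gene in a line. A few genes that these rules or the marker lists name are not reported here. Replicate numbers in the labels are shared by both states. Over 13293 genes, the deviations of same-numbered libraries had r above 0 in every line. These r values were 0.147, 0.279 and 0.261 in T47D cells and 0.207, 0.118 and 0.0487 in A549 cells. HCT-116 cells gave 0.276, 0.201 and 0.0453, and PC3 cells 0.0981, 0.0818 and 0.0704. The main fits of every line used no pairs, and the replicate block was an alternative only. Alternatives were DESeq2 1.42.0, RLE size factors, library totals, each library left out, a mean count of 50 or more, no filter, one fit of all libraries, the replicate block and a 1.5-fold threshold.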

Additional observations from a re-analysis of the deposited data

Results flagged for a closer look

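The hypoxia effect on 3 members differed between the lines by the interaction test of all 24 libraries. For SLC40A1 the adjusted p was 0.00206, with log2 fold changes of -0.34, -2.16, -0.89 and 0.12 in A549, HCT-116, PC3 and T47D cells, and HCT-116 cells, where it fell, had under 4 CPM in every library. For FTL it was 0.0185, with -0.16, 0.43, 0.058 and 0.98, and the line with the largest value held the least FTL message in normoxia. For TF it was 0.0448, with 2.11 and 3.08 in A549 and T47D cells, 0 counts in PC3 cells, and 6, 24 and 6 counts in normoxia against 0, 2 and 1 in hypoxia in HCT-116 cells. The pairs of lines called for TF were those of HCT-116 with A549 and with T47D cells (A549 minus HCT-116 5.33, HCT-116 minus T47D -6.38). TF passed the filter on low counts of that fit through its A549 and T47D libraries. Without replicate 2 of every line these adjusted p values were 0.178, 0.325 and 0.506, and without replicate 1 those of FTL and TF were 0.191 and 0.0717.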

How the results depend on the processing

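No called member changed direction under any alternative, nor did any called list gene picked by the naming rules. The other list genes were followed as counts only. Of 530 member values under alternatives 11 changed sign, none of them called in either fit. Counts of called members (main values 2, 6, 2 and 3 in A549, HCT-116, PC3 and T47D cells) became 0 in A549 and 0 in PC3 cells with a fold change over 1.5, 1 in PC3 cells with library totals, 5 in T47D cells with DESeq2, and 0 in A549, 1 in PC3 and 5 in T47D cells in one fit of all 24 libraries. With 1 library left out they ranged from 1 to 3 in A549, 4 to 6 in HCT-116, 1 to 2 in PC3 and 0 to 4 in T47D cells. Counts of the iron and heme lists (33, 32, 19 and 7) became 14 in A549 and 9 in PC3 cells with a fold change over 1.5, 16, 8 and 19 in A549, PC3 and T47D cells in one fit, and in T47D cells 12 with library totals, 11 with no filter and 13 with DESeq2, and ranged from 22 to 35, 27 to 36, 9 to 28 and 0 to 23 with 1 library left out. DESeq2 also called FTL and TFRC in HCT-116 cells (adjusted p = 0.0267 and 0.0241) and ACO1 and TFRC in T47D cells (0.0499 and 0.0444), and one fit of all libraries also called FTL in HCT-116 cells (0.0264) and ACO1 in T47D cells (0.017). The interaction count of 3 members became 7 with the replicate block and 0 to 5 without 1 replicate. The replicate block raised the T47D list count from 7 to 11 and called ACO1 in T47D cells. In A549 cells it called TF (log2 fold change 2.69, adjusted p = 0.00467), which had passed the filter there through its hypoxic libraries. The block changed no other call of a member within a line. The count of members whose normoxic level differed was 9 to 10 with 1 library left out. The TFRC to FTH1 ratio, -0.025 over all lines, was 0.048 without replicate 3 and -0.095 without replicate 2. The FTH1 to FTL ratio stayed between 0.071 and 0.091, and the ACO1 to IREB2 ratio between 0.38 and 0.44 with p from 0.00154 to 0.00926 (exact permutation). Scaling to library totals moved the median of all genes to -0.13 in A549 and -0.12 in T47D cells, with 33.9% and 32.1% of calls upward against 49.8% and 49.5% with TMM. The cause of these changes was not tested. Low depth limits TF and, in HCT-116 and PC3 cells, SLC40A1, and copies of FTH1 and FTL limit both.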
